A study of Mus musculus with 4 samples.

Results

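The genes described here are 9 that encode abundant folding proteins of the endoplasmic reticulum (ER): Hspa5, Hyou1, Hsp90b1, Calr, Canx, Pdia3, P4hb, Pdia4 and Pdia6. They were taken by Ensembl gene ID, 9 of the 53465 IDs in the count table, by a rule written in terms of function. The rule itself uses no measured value, but the genes were chosen with earlier results of these data known. The table holds IDs only, so the symbols are those that came with the choice of genes. The values are counts of ribosome footprints, the short mRNA fragments that ribosomes shield from nuclease, in 4 libraries of MLE-12 cells. This mouse lung epithelial line carries the SV40 large T antigen, which keeps it dividing, and serves as a model of alveolar type 2 cells. Libraries 2 and 3 of the treated group came from cells treated with 5 µM 1-nitropyrene, a nitroarene found in diesel exhaust particles, and libraries 1 and 2 of the control group from cells cultured without it; per the series' design text the culture lasted 12 h. Both groups were rinsed in buffer with cycloheximide, an inhibitor of elongation that keeps ribosomes on their mRNA. All libraries come from a single cell line, and nothing in the labels says that the 2 libraries of a group were separate cultures, so the spread behind a p-value may be technical. The edgeR fit pooled that spread over genes: it put each gene's dispersion on a common trend with abundance, so standard errors, intervals and p-values do not follow a gene's own gap between its 2 libraries.

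Proteins that enter the secretory pathway fold in the ER. Hsp70-type and Hsp90-type chaperones bind exposed stretches of the new chains, lectin chaperones hold those that carry trimmed sugar trees, and protein disulfide isomerases form and rearrange disulfide bonds. When unfolded chains accumulate, sensors in the ER membrane start the unfolded protein response, in which the transcription factors ATF6 and XBP1 raise the transcription of many folding genes. Both factors can act through the ER stress response element (ERSE), a CCAAT box bound by NF-Y and a CCACG box placed at a fixed distance from it. Alveolar type 2 cells make and secrete surfactant proteins and so carry a large folding load.

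A footprint count reflects both the amount of an mRNA and how densely ribosomes occupy it, and these cannot be told apart without RNA libraries, which are not analysed here. Nor can fewer cells and less RNA per cell be told apart in such bulk samples. The 1-nitropyrene libraries held 1243186 and 1357034 counts and the control libraries 1261372 and 1136145. Between libraries of a group the chi-square per degree of freedom over genes was 1.61 for 1-nitropyrene and 1.55 for control, so none was a copy of another; across groups it ran from 5.82 to 6.02. Levels are given as CPM, counts scaled to an effective library of 1e6 with edgeR's TMM method. In the 1-nitropyrene libraries 1 gene ID pair took 32.9% and 33.0% of all counts, against 29.7% and 29.7% in the control libraries, and the choice of scaling matters for the reading of small changes. Marker genes of lung cell types could not be tied to IDs, so the label of the cells was not checked against markers.

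The promoters are shown first for the genes on which the results turn. RefSeq's GRCm38.p6 promoter table, the same assembly as the authors' mm10, held 8 of the 9 genes; Hyou1 had no entry. The 250 bases before each annotated start were searched on both strands for the ERSE, written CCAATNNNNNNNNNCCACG. Pdia6 and Calr are shown as the genes that were higher in 1-nitropyrene cells, Pdia4 as the gene that was lower, and Hspa5 as a textbook ERSE gene. Sequences run 5′ to 3′ on the gene's own strand, and capitals mark the fixed letters of an ERSE match. The match in Calr lies on the opposite strand, so it reads as CGTGG and then ATTGG.
Pdia6, chr12:17266339-17266588, plus strand: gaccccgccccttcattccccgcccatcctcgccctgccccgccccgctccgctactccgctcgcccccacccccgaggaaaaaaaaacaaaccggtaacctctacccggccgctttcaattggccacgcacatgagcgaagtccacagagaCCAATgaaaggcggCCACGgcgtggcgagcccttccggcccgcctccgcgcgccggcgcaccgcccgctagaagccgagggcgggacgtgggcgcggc
Calr, chr8:84846932-84847181, minus strand: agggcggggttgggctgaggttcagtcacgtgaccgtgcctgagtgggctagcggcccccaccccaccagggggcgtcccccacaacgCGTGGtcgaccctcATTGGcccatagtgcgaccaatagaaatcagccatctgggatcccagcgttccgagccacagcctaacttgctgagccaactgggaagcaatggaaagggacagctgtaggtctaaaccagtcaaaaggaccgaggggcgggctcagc
Pdia4, chr6:47813513-47813762, minus strand: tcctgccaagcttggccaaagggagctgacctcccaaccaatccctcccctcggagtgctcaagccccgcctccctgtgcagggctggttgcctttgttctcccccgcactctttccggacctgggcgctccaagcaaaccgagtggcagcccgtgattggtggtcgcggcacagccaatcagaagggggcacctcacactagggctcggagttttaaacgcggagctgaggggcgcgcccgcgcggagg
Hspa5, chr2:34771840-34772089, plus strand: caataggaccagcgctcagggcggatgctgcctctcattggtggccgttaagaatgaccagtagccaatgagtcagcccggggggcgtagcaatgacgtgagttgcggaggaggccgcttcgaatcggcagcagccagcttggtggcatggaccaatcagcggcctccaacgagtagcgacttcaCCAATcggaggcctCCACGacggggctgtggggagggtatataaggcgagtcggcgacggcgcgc

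Exact ERSE matches stood before 5 of the 8 starts, those of Hspa5, Hsp90b1, Calr, Canx and Pdia6. Of all 32851 promoters in the table, 37 (0.113%) held a match in the same window. The genes were picked as folding genes, the kind in which the ERSE is known, and Hspa5 is a textbook case. A high share among them is therefore no independent finding, and these shares and those below were not tested. The matches of the remaining carriers are given next for comparison of their spacers, in lower case, with Hsp90b1 holding a match on either strand.
Hsp90b1, own strand: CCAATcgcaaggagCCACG
Hsp90b1, opposite strand: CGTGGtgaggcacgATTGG
Canx, own strand: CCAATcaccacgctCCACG
With 1 mismatch allowed among the 10 fixed letters, Pdia3 and Pdia4 also had a match, which made 7 of 8 genes, against 1.32% of all promoters. In the next lines capitals mark only the fixed letters that were matched.
Pdia3, own strand: CCAATcggcggctgCCACa
Pdia4, opposite strand: aGTGGcagcccgtgATTGG
P4hb had neither in this window. The shorter elements ATTGGNCCACG (ERSE-II) and TGACGTGG (the core of the XBP1-bound unfolded protein response element), searched on both strands, were found before 0 of the 8 starts, against 0.0304% and 0.563% of all promoters. A match is a description of the letters and says nothing of whether a factor was bound in these cells.

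**Figure D1:**
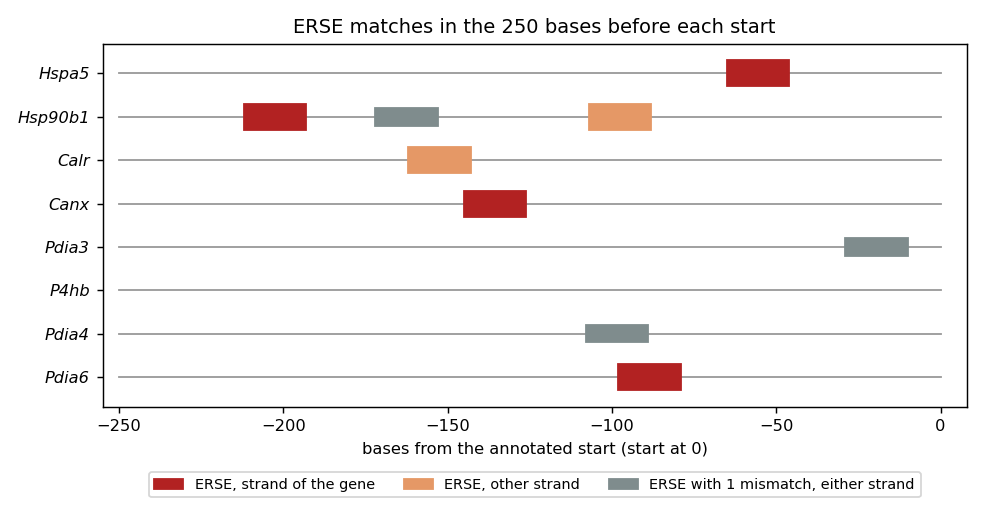
ERSE matches in the 250 bases before the annotated start of the 8 genes with a promoter entry; the x axis gives bases from the start. Tall bars are exact matches on the gene's own strand (red) or the opposite strand (orange), and low grey bars are matches with 1 mismatch; Hsp90b1 has 2 exact matches and P4hb has none of either kind.

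All 9 genes passed the filter on low counts, with mean counts over the 4 libraries between 335.5 for Pdia4 and 4106 for Calr. Of the 9 genes, 2 rose and 1 fell in 1-nitropyrene cells, and 6 did not pass the test (edgeR quasi-likelihood test; the threshold was an adjusted p of 0.05, by Benjamini and Hochberg's method over the 7719 genes that passed the filter). Pdia6 rose 1.42-fold, Calr rose 1.15-fold, and Pdia4 fell to 0.809 of its control level. Over all genes tested 17.3% were called, 9.68% higher and 7.58% lower. These calls are for TMM scaling; with total counts Pdia6 was still called higher and Pdia4 lower, the call of Calr was lost, and Hspa5 and Canx were called lower. Calls were more frequent among deeply covered genes. Of the 463 tested genes with a mean count at least as high as that of Pdia4, 57.7% were called, 45.6% higher and 12.1% lower, against 33.3% of the 9 genes. The median log2 fold change was 0.067 for the 9 genes, -0.0076 for all genes tested and 0.16 for these 463 genes. These figures are set side by side as descriptions, since a group of 9 chosen with earlier results known was not tested as a list.

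**Figure D2:**
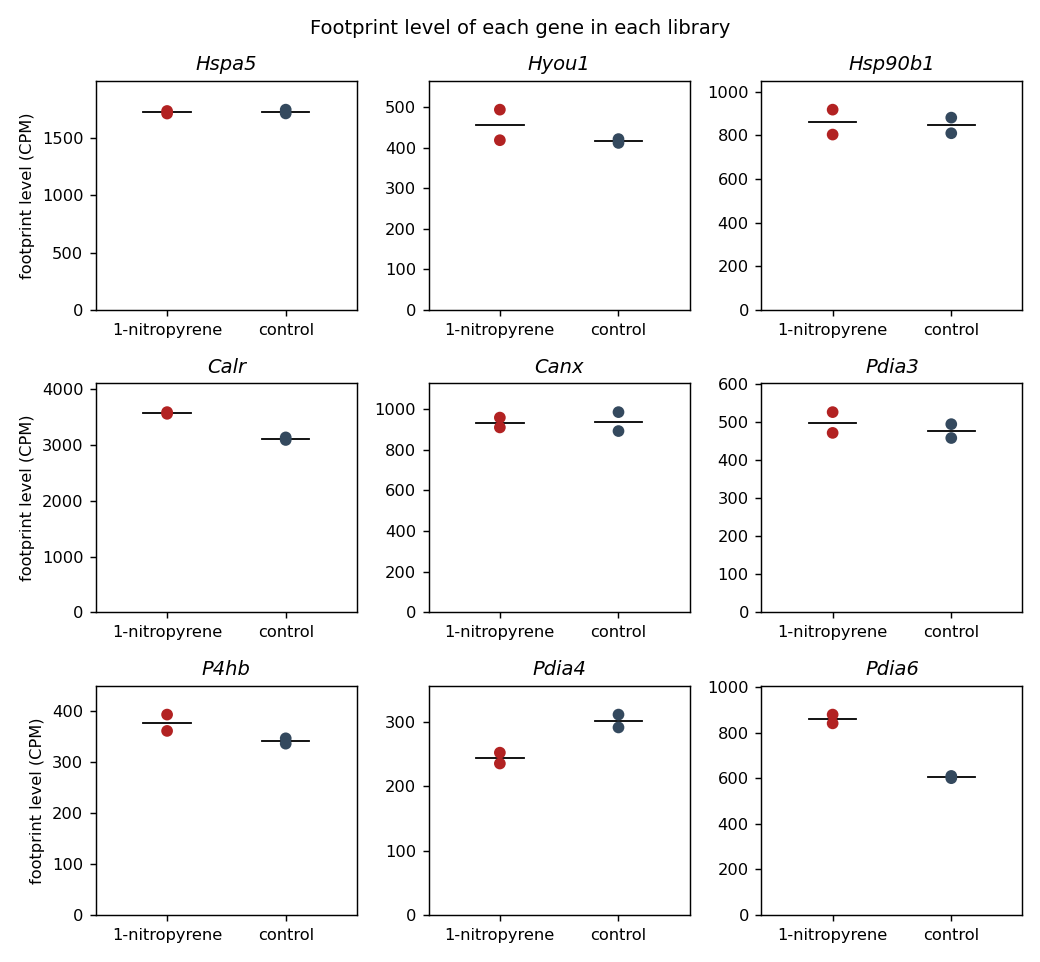
Footprint level (CPM, TMM-scaled) of each of the 9 genes in each library, with 1-nitropyrene on the left (red) and control on the right (dark); points are libraries and bars are means of 2 libraries. Pdia6, Calr and P4hb lie higher in both 1-nitropyrene libraries than in either control, and Pdia4 lies lower; the groups of the other genes overlap.

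The Hsp70 and Hsp90 chaperones come first. Hspa5 (ENSMUSG00000026864, chr2:34772090-34776529) encodes BiP, the Hsp70 of the ER lumen, which also restrains the stress sensors while chains fold normally. Its counts were 2019 and 2165 in the 1-nitropyrene libraries and 2256 and 2073 in the control libraries, or 1737 and 1715 CPM against 1716 and 1749 CPM. The groups overlap, and all 4 libraries lie close together. The fold change was 0.996 with a 95% interval of 0.942 to 1.05, so changes above 5.38% or below -5.78% lie outside the interval on this scaling (edgeR quasi-likelihood test, adjusted p = 0.957). With total counts its log2 fold change was -0.17 and passed the test. Hspa5 is a gene often read as a sign of ER stress, and an ERSE stands before its start as shown above. Whether the unfolded protein response was active in these cells was not tested.

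Hyou1 (ENSMUSG00000032115, chr9:44379490-44392369) encodes Grp170, a large Hsp70 relative that exchanges nucleotide on BiP. It had 486 and 623 counts in the 1-nitropyrene libraries and 541 and 499 in the control libraries. On the CPM scale these were 418 and 493 against 411 and 421, so that 1-nitropyrene replicate 3 stood above the other 3 libraries, which lay close together. The fold change of 1.10 (95% interval 0.987 to 1.22) did not pass the test (edgeR adjusted p = 0.238). Within the 1-nitropyrene group its libraries differed by a factor of 1.18, the widest gap inside a group among the 9 genes.

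Hsp90b1 (ENSMUSG00000020048, chr10:86690841-86705444) encodes Grp94, the Hsp90 of the ER, which folds integrins and other surface proteins. Its level was 918 and 804 CPM in the 1-nitropyrene libraries and 810.0 and 882 CPM in the control libraries. The highest and the lowest value both belong to 1-nitropyrene, so the groups overlap fully. The fold change was 1.02 with a 95% interval of 0.943 to 1.10 (edgeR adjusted p = 0.817). On TMM scaling none of these 3 chaperones therefore passed the test, and the intervals of all 3 lie between 0.942 and 1.22. With total counts Hspa5 was called lower, at a log2 fold change of -0.17 (edgeR adjusted p = 0.00034). Hsp90b1 came close to a call on that scaling, at -0.14 (edgeR adjusted p = 0.056).

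Among the lectin chaperones, Calr and Canx gave different values. Calr (ENSMUSG00000003814, chr8:84842088-84846931) encodes calreticulin, a soluble lectin chaperone that also stores calcium in the ER lumen. Its counts were 4128 and 4523 in the 1-nitropyrene libraries and 4116 and 3656 in the control libraries. In CPM these were 3552 and 3583 against 3131 and 3084, and the groups do not overlap. The means were 3567 ± 21.5 CPM in 1-nitropyrene cells and 3107 ± 32.7 CPM in control cells (SD, n = 2 each). The rise of 1.15-fold (95% interval 1.10 to 1.20, log2 fold change 0.20 ± 0.032 SE) passed the edgeR test with an adjusted p of 1.85e-08, and the DESeq2 Wald test with 0.00014. Scaled to total counts, the log2 fold change of Calr was 0.034 and the call was lost (edgeR adjusted p = 0.45).

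Canx (ENSMUSG00000020368, chr11:50293957-50325673) encodes calnexin, the membrane-bound counterpart of calreticulin. It had 957 and 909 CPM in the 1-nitropyrene libraries and 891 and 984 CPM in the control libraries. Both 1-nitropyrene values fall between the control values. The fold change was 0.996, with a 95% interval of 0.926 to 1.07 (edgeR adjusted p = 0.962). In counts within each library, which need no scaling, there were 0.269 and 0.254 Canx counts per Calr count in 1-nitropyrene cells and 0.284 and 0.319 in control cells. The ratio was thus lower in both 1-nitropyrene libraries than in either control.

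The disulfide isomerases held the strongest rise and the only called fall among the 9 genes on TMM scaling. Pdia6 (ENSMUSG00000020571, chr12:17266589-17284785) encodes P5, an isomerase that works with BiP. Its counts were 977 and 1110 in the 1-nitropyrene libraries and 789 and 723 in the control libraries. The levels were 841 and 879 CPM against 600.1 and 610.0 CPM, so that both treated libraries lay well above both controls. The gap between libraries of a group was a factor of 1.05 in 1-nitropyrene and 1.02 in control, while the ratio of a 1-nitropyrene to a control library ran from 1.38 to 1.47 over the 4 pairs. The means were 860.0 ± 27.2 CPM in 1-nitropyrene cells and 605 ± 6.97 CPM in control cells (SD, n = 2 each). The edgeR quasi-likelihood test gave a fold change of 1.42 (95% interval 1.31 to 1.54, log2 fold change 0.51 ± 0.061 SE) and an adjusted p of 7.62e-15. Pdia6 passed in all 11 alternatives, with log2 fold changes from 0.34 with total counts to 0.55, and with an adjusted p of 5.33e-06 by the DESeq2 Wald test. Among the 463 genes at least as deeply covered as Pdia4, 60 (13.0%) had a larger log2 fold change.

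Pdia4 (ENSMUSG00000025823, chr6:47796141-47813512) encodes ERp72, an isomerase with several thioredoxin-like domains. Its counts were 293 and 297 in the 1-nitropyrene libraries and 383 and 369 in the control libraries. This gave 252 and 235 CPM against 291 and 311 CPM, with both 1-nitropyrene libraries below both controls. The means were 244 ± 11.9 CPM in 1-nitropyrene cells and 301 ± 14.1 CPM in control cells (SD, n = 2 each). The log2 fold change was -0.31 ± 0.099 SE (edgeR adjusted p = 0.0171), and 32 of the 463 genes at or above its own mean count (6.91%) had a lower value. The call is less firm than that of Pdia6: the DESeq2 Wald test gave an adjusted p of 0.273, and the edgeR call was lost when any 1 of the 4 libraries was left out, with adjusted p of 0.098 without 1-nitropyrene replicate 2, 0.191 without 1-nitropyrene replicate 3, 0.0549 without control replicate 1 and 0.22 without control replicate 2. Its log2 fold change was below 0 in each of the 11 alternatives, between -0.47 and -0.25.

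P4hb and Pdia3 did not pass the test. P4hb (ENSMUSG00000025130, chr11:120560298-120573253) encodes the classical protein disulfide isomerase, which is also a subunit of the collagen prolyl 4-hydroxylase. It had 392 and 360.4 CPM in the 1-nitropyrene libraries and 335 and 346 CPM in the control libraries. The groups do not overlap, but the fold change of 1.10 had a 95% interval of 0.982 to 1.24 (edgeR adjusted p = 0.255). Groups that do not overlap were found for 4 of the 9 genes, against 57.3% of all genes tested and 80.3% of the 463 genes at least as deeply covered as Pdia4. Pdia3 (ENSMUSG00000027248, chr2:121413902-121438687) encodes ERp57, the isomerase that calnexin and calreticulin recruit to glycoproteins. Its levels of 471 and 525 CPM in 1-nitropyrene cells and 494 and 457 CPM in control cells overlapped, and the fold change was 1.05 (95% interval 0.947 to 1.16, edgeR adjusted p = 0.587). Each interval holds only for TMM scaling and the dispersion trend shared by genes. With total counts the changes of Hspa5 and Canx were -11.1% and -11.2%, outside their TMM intervals. An interval that holds 1 does not show that a level was the same.

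**Figure D3:**
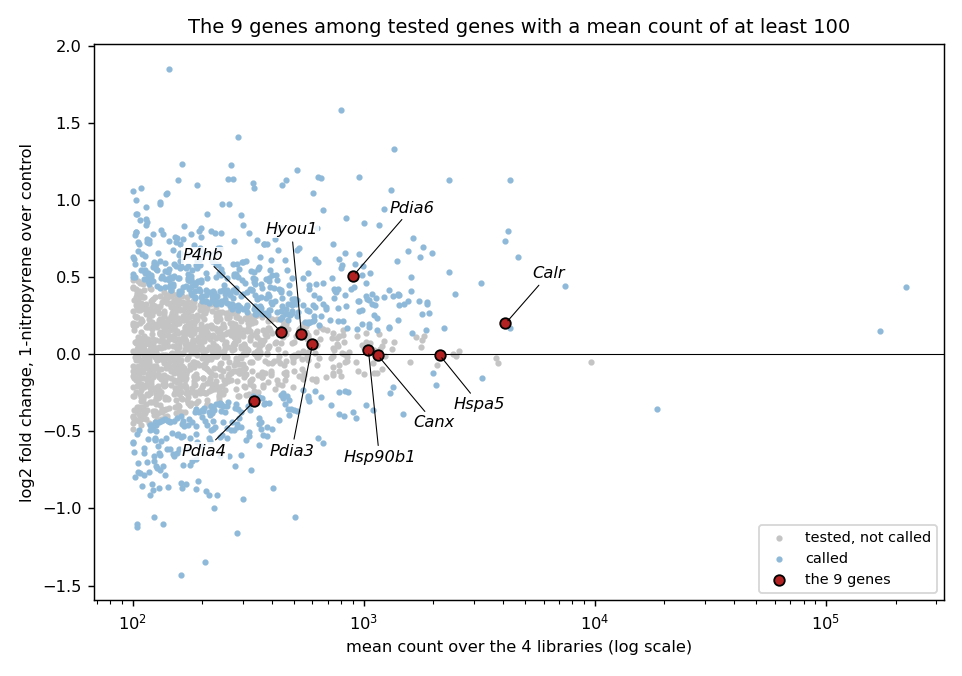
Log2 fold change (1-nitropyrene over control, y axis) against mean count over the 4 libraries (x axis, log scale) for tested genes whose mean count reached 100. Blue points were called and grey points were not, and the 9 genes are larger red points with a black edge, whether called or not. Pdia6 at 0.51 and Calr at 0.20 lie among called genes above the line and Pdia4 at -0.31 among those below it.

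The ratio of Pdia6 to Pdia4 counts was higher in both 1-nitropyrene libraries than in either control. There were 3.33 and 3.74 Pdia6 counts per Pdia4 count in the 1-nitropyrene libraries and 2.06 and 1.96 in the control libraries. The log2 fold changes of the pair differed by 0.81 ± 0.12 (SE from the edgeR fit, taking the genes as independent); the pair was picked as the extremes of the 9, so this is a description with no test. Against Hspa5, too, Pdia6 stood higher, with 0.484 and 0.513 counts per Hspa5 count in 1-nitropyrene cells and 0.350 and 0.349 in control cells. Hyou1, the nucleotide exchange factor, had 0.241 and 0.288 counts per Hspa5 count in 1-nitropyrene cells and 0.240 and 0.241 in control cells.

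As shares of the summed counts of the 9 genes, which do not depend on the scaling, the same genes moved apart. Pdia6 made up 8.81% and 9.25% of the sum in the 1-nitropyrene libraries and 6.91% and 6.90% in the control libraries. Pdia4 made up 2.64% and 2.48% against 3.36% and 3.52%. Neither pair of ranges overlaps. The share of Hspa5 was 18.2% and 18.0% in 1-nitropyrene cells and 19.8% and 19.8% in control cells, and that of Canx 10.0% and 9.56% against 10.3% and 11.1%. Both shares were lower in the 1-nitropyrene libraries, without overlap. That of Calr, 37.2% and 37.7% against 36.1% and 34.9%, was higher. The shares of Hsp90b1, Pdia3, P4hb and Hyou1 overlapped between the groups. No matching figure for shares was computed over other genes. In CPM the groups did not overlap for 57.3% of all genes tested, and for 80.3% of the 463 at least as deep as Pdia4. Lack of overlap was thus common among genes at large. A share can move only as others give way, and the values of the 9 genes are therefore not independent. With 2 libraries a group an exact permutation test cannot go below p = 0.333, so no p is given for shares and ratios.

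**Figure D4:**
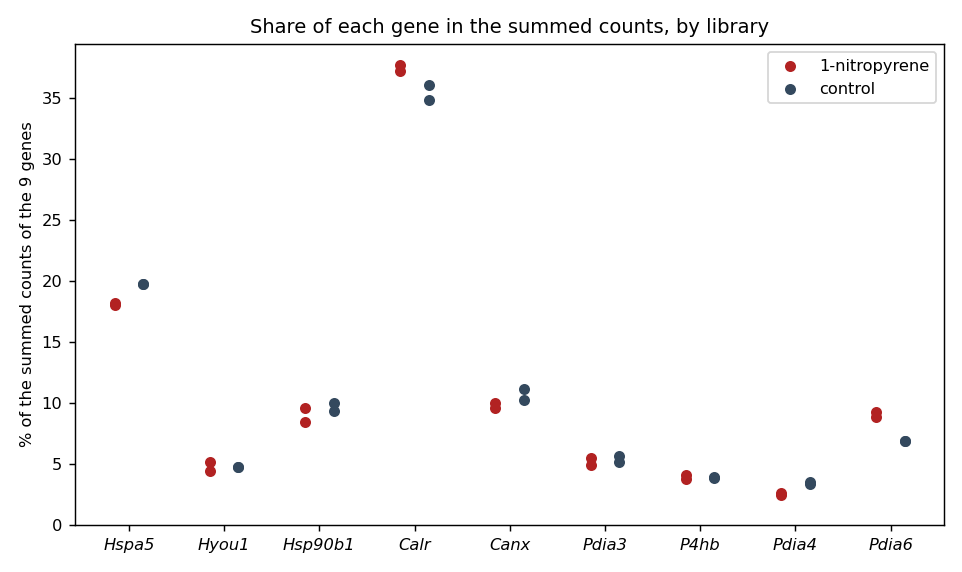
Share of each gene in the summed counts of the 9 genes (y axis, %), per library, with 1-nitropyrene at the left of each gene (red) and control at the right (dark). The points of Pdia6 and Calr lie higher in 1-nitropyrene, those of Hspa5, Canx and Pdia4 lower, and the other 4 genes overlap.

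Taken as a sum, the 9 genes gave 9539 and 9503 CPM in the 1-nitropyrene libraries and 8679 and 8844 CPM in the control libraries, a ratio of means of 1.09. As a share of all counts the order is turned: they held 0.892% and 0.884% of the 1-nitropyrene libraries and 0.905% and 0.923% of the control libraries, a ratio of 0.972. Without the pair of IDs that took the most counts, the share was 1.33% and 1.32% of the remaining counts in 1-nitropyrene cells and 1.29% and 1.31% in control cells, a ratio of 1.02. The summed footprints of the folding genes thus have no direction that holds across scalings.

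The scaling also decides how the single genes are read. Scaled to total counts, the median log2 fold change of all genes tested was -0.17, and that of the 9 genes -0.098. Under either scaling 8 of the 9 genes lay above the median of all genes, Pdia4 being the exception. Hspa5 and Canx barely did, at -0.0052 and -0.0060 against -0.0076 with TMM and -0.170 and -0.171 against -0.172 with total counts. With TMM only Calr and Pdia6 lay above 0.16, the median of the 463 genes at least as deeply covered as Pdia4. With total counts 1 gene was called higher, Pdia6 with a log2 fold change of 0.34, against 5.26% of all genes tested. No share at the depth of the 9 genes was computed with total counts, although calls were more frequent at that depth with TMM. The genes called lower were 3, against 14.4% of all genes tested. These were Pdia4 at -0.47, Hspa5 at -0.17 (edgeR adjusted p = 0.00034) and Canx at -0.17 (edgeR adjusted p = 0.0101), and the values of Hspa5 and Canx equal the shift of the median gene to 2 decimals. Pdia6 rose and Pdia4 fell under both scalings, whereas the call of Calr needed TMM and those of Hspa5 and Canx needed total counts.

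**Figure D5:**
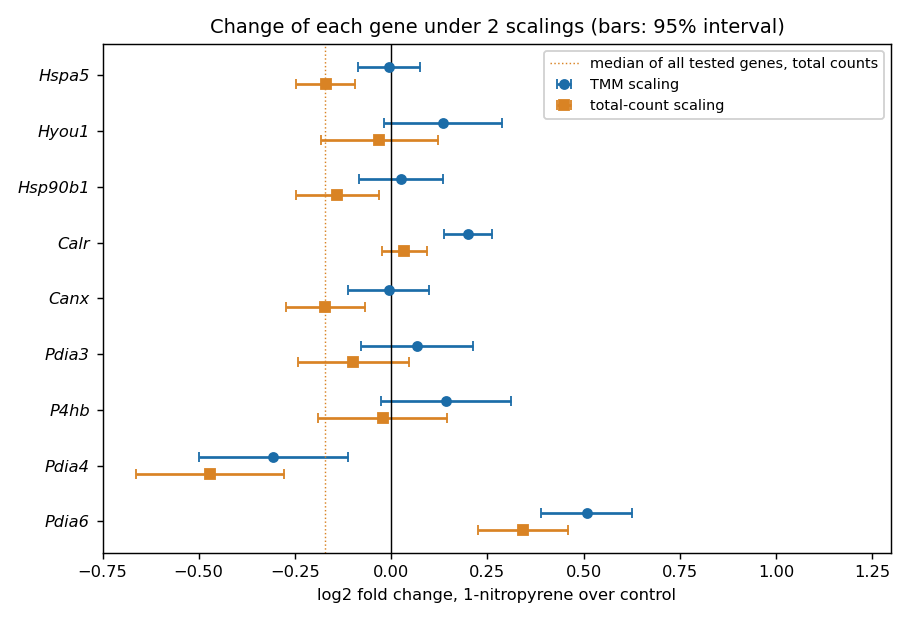
Log2 fold change (x axis, 1-nitropyrene over control) of the 9 genes with TMM scaling (blue circles) and with total-count scaling (orange squares); bars are 95% intervals from the edgeR fit and the dotted line is the median of all tested genes with total counts, at -0.17. The interval of Pdia6 lies above 0 and that of Pdia4 below 0 under both scalings.

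Set against the promoters shown above, genes with and without an exact ERSE match were found among those that changed and those that did not pass. Of the 5 genes with a match, Pdia6 and Calr rose on TMM scaling, while Hspa5, Hsp90b1 and Canx had fold changes of 0.996, 1.02 and 0.996. With total counts Pdia6 was called higher, Hspa5 and Canx were called lower, and Calr and Hsp90b1 were not called. Hsp90b1 came close to a call, at a log2 fold change of -0.14 (edgeR adjusted p = 0.056), whereas Calr stood at 0.034 (edgeR adjusted p = 0.45). Of the 3 genes without an exact match, Pdia4 fell, by a call less firm than that of Pdia6, while Pdia3 and P4hb had TMM-scaled fold changes of 1.05 and 1.10. The division rests on exact matches: Pdia3 and Pdia4 held a match with 1 mismatch, and Hyou1 had no promoter entry. Whether a match goes with a change was not tested.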

How the data were processed

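Ribosome footprints of MLE-12 cells were deposited by the authors as whole-number counts per Ensembl gene ID, not normalized, with 1 column per library and 0 other sample columns. The submitters' processing notes name featureCounts, HISAT2, Bowtie, cutadapt and DESeq2, with mm10 as the build. For versions, annotation, fragment length selection and strand setting, nothing is given in the sources used here, so reads shared with overlapping, antisense or near-identical genes are uncertain. Genes were kept with edgeR's filterByExpr (minimum count 10, minimum total 15; 7719 IDs), scaled with TMM and tested with the quasi-likelihood F test of edgeR 4.0.16 under R 4.3.3, adjusted by Benjamini-Hochberg over all 7719. A standard error is the log2 fold change divided by the square root of F. Alternatives were total counts, DESeq2's size factors, other filters, the Wald test of DESeq2 1.42.0, voom from limma 3.58.1, removal of the 2 IDs with the most counts, and leaving out each library. Every member is named. The members and lists were chosen with earlier results of these data known. The gene table (GRCm38.p6) gives an Ensembl ID for 0 of its 49997 genes, so lists of 98 other symbols (ER import, degradation, stress sensors, cytosolic chaperones, cell markers) are not analysed here. Levels of different genes were not compared, as no coding lengths were used. As edgeR estimated infinite prior degrees of freedom, intervals and p-values rest on a dispersion trend shared by genes and not on the spread of the single gene.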

Additional observations from a re-analysis of the deposited data

How the results depend on the processing

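Of 99 combinations of a gene and an alternative, 8 changed side of the threshold, and no called gene changed direction. Pdia6 was called in all 11 alternatives and Calr in all but total counts. With total counts 1 of the 9 genes was called higher and 3 lower. The DESeq2 Wald test called 311 of the 2900 genes to which it gave an adjusted p, against 1332 of 7719 in edgeR, and 0 of the 9 lower (0 also at an unadjusted p under 0.05); the cause was not tested. With 1 library left out, the single library of its group being taken to vary as much as the other group, there were 572 to 834 calls over all genes, and 0 of the 9 genes were lower by edgeR each time, though 1 (Pdia4) was at an unadjusted p under 0.05; these fits have fewer samples. Over all genes the count was 572 or 834 without 1-nitropyrene replicate 2 or 3, and 765 or 742 without control replicate 1 or 2. Total counts called 26.8% of all calls higher, against 56.1% with TMM. As a share of all counts, the log2 ratio was -0.17 for Hspa5 and 0.038 for Calr. No paired analysis was possible because a single replicate number, 2, occurs in both groups. The alternative per coding length and those for the symbol lists were not run, for want of lengths and names.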
